A study of Mus musculus with 16 samples.

Results

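The fatty acid desaturases and elongases described here are 9 genes of mouse liver, taken by name: the stearoyl-CoA desaturases Scd1 and Scd2, the fatty acid desaturases Fads1 and Fads2, and the elongases Elovl1, Elovl2, Elovl3, Elovl5 and Elovl6. They are 9 of the 51912 genes in the count table, and all 9 were among the 14920 genes with enough counts to be tested. Poly-A RNA of 16 livers was sequenced, in 4 groups of 4 libraries. The control fasted and low isoleucine fasted groups were male mice killed after a 16 h fast, and the control refed and low isoleucine refed groups were male mice killed after refeeding. From 10 weeks of age each mouse had been fed for 3 weeks, on control amino acid food or on food low in isoleucine, an essential branched-chain amino acid, so that all were 13 weeks old at harvest. The sources used here give no strain, genotype or length of refeeding. The labels do not state that each library is a separate mouse, so p-values measure the spread between these libraries. The titles of each group also carry a number of their own, and what it stands for cannot be told apart from diet and feeding state.

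Desaturases put double bonds into fatty acyl-CoA, and elongases catalyse the first, rate-setting step of the cycle that lengthens it in the endoplasmic reticulum. SCD1 makes oleate and palmitoleate from saturated chains and is a main lipogenic enzyme of liver, and ELOVL6 lengthens palmitate to stearate on the same route. FADS2, ELOVL5, FADS1 and ELOVL2 act in turn on essential fatty acids from the diet to give long polyunsaturated chains such as arachidonate and docosahexaenoate. ELOVL1 and ELOVL3 lengthen saturated and monounsaturated chains to very long ones. Feeding and insulin act on several of these genes through the transcription factor SREBP-1c, and long polyunsaturated fatty acids are known to lower its activity.

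Total expected counts ran from 24368656 to 34002955 per library. Levels are CPM, read counts relative to library size, after scaling by the trimmed mean of M values (TMM). All 7 hepatocyte markers were detected in every group, and their summed level ran from 61020 to 114100 CPM. One library stood apart. In control refed library 4 the summed markers of Kupffer cells (359 CPM), stellate cells (548), endothelial cells (220) and lymphocytes (9.15) were each the highest of the 16 libraries, and its TMM factor was 1.21, against 0.925 to 1.07 in the others. Summed genes of fatty acid synthesis stood at 457 CPM in that library, against 1243 to 1351 in the other 3 control refed libraries and 476 to 633 in the 8 fasted ones. Fasn, fatty acid synthase, was at 62.2 CPM there and at 348 to 545 CPM in the other 3. Insig2 and Ppara, both lower in refed than in fasted liver, were at 95.2 and 40.4 CPM in that library, within the range of the other refed libraries of both diets. Within its own group its Insig2 was the highest, against 52.8 to 82.8 CPM in the other 3, and its Ppara the lowest, against 46.5 to 65.4 CPM. Insig1 was at 86.5 CPM there, inside the fasted range (72.3 to 183 CPM), against 267 to 430 CPM in the other 3. Values that this library changes most are given with and without it. In bulk liver, fewer cells of a type and less RNA per cell cannot be told apart.

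Feeding state moved most of these genes, and which way depended on the gene. Averaged over the diets, 8 of the 9 passed an adjusted p of 0.05 in the edgeR quasi-likelihood test: Elovl6, Scd2 and Elovl1 rose with refeeding, and Elovl3, Scd1, Elovl5, Elovl2 and Fads2 fell. The call of Scd1 was lost in 11 of 25 alternatives, among them those without control fasted library 2 or 3, low isoleucine fasted library 1, 2 or 4, control refed library 1 or 3, or low isoleucine refed library 1, 3 or 4 (edgeR adjusted p 0.0520 to 0.0809). The rise of Scd2 went from 0.64 to 0.41 (log2) without control refed library 4. Over all genes tested 16.4% rose and 16.5% fell in that comparison. On the control diet 2 rose (Elovl1 and Elovl6) and 2 fell (Elovl5 and Elovl2), where 8.91% of all genes rose and 8.2% fell. On the low isoleucine diet 2 rose (Elovl6 and Scd2) and 5 fell (Elovl3, Scd1, Elovl5, Elovl2 and Fads2), where 9.6% of all genes rose and 11.8% fell. The median log2 fold change of the 9 genes was -0.30 in control mice and -0.91 on the low isoleucine diet, beside 0.01 and 0.02 over all genes.

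No member passed the test for diet in either feeding state. In fasted liver 0 of 9 passed, beside 0.771% of all genes, and 2 of 9 (Elovl1 and Elovl5) had an unadjusted p under 0.05, beside 10.8% of all genes, with 0 called by DESeq2 and 0 by limma-voom. In refed liver 0 of 9 passed, beside 0.174% of all genes, and 5 of 9 (Scd1, Fads2, Elovl2, Fads1 and Elovl1) had an unadjusted p under 0.05, all lower on the low isoleucine diet, beside 9.76% of all genes. DESeq2 called Scd1, Fads2 and Elovl2 lower in refed liver, where it called 172 genes (1.15%) against 26 by edgeR, and limma-voom called 0 members. Averaged over feeding states 0 of 9 passed by edgeR, beside 1.51% of all genes. There 4 of 9 (Scd1, Fads2, Fads1 and Elovl3) had an unadjusted p under 0.05, beside 14.3% of all genes. DESeq2 called Scd1 and Fads2, among 607 genes (4.07%) against 226 by edgeR, and limma-voom called 0 members.

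**Figure D1:**
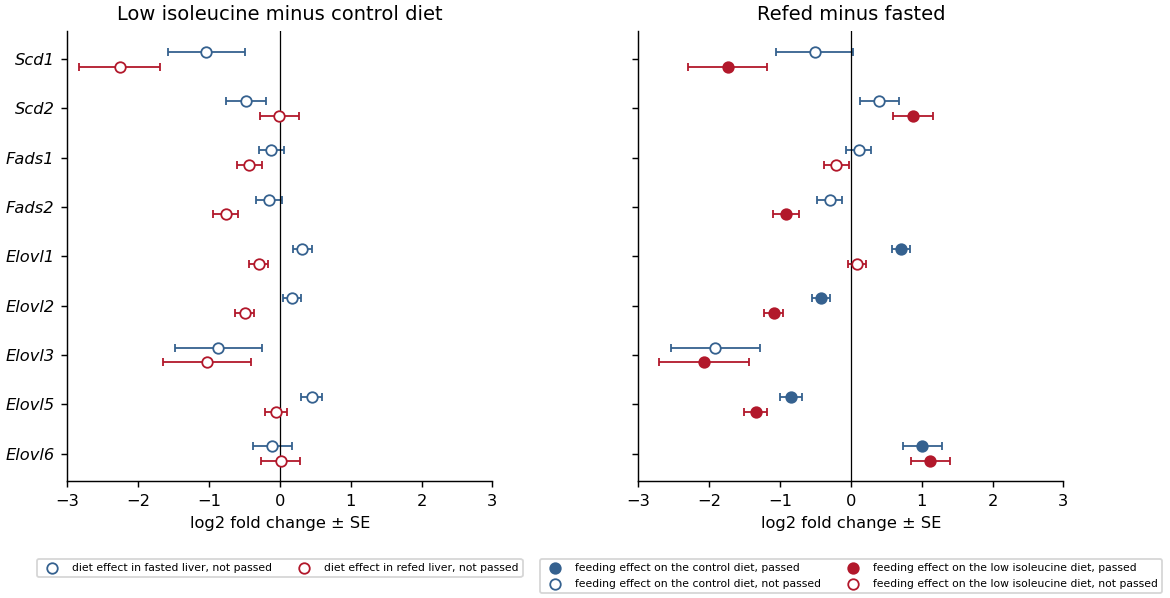
Log2 fold change of the 9 genes with its standard error, from the edgeR fit: left, low isoleucine minus control diet in fasted (blue) and refed (red) liver. Right, refed minus fasted on the control (blue) and low isoleucine (red) diet; filled points passed an adjusted p of 0.05, all of them in the feeding panel, 4 in control mice and 7 on the low isoleucine diet.

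The ranges of the groups needed no fitted model. Between diets the 4 libraries of one group lay wholly above the other for 2 of 9 members in fasted liver (Elovl1 and Elovl5), beside 8.07% of all genes. In refed liver this held for 1 of 9, Elovl2, beside 4.44%. Between feeding states it held for 3 of 9 on the control diet (Elovl1, Elovl3 and Elovl5), beside 19.1%, and for 6 of 9 on the low isoleucine diet (Scd1, Scd2, Fads2, Elovl2, Elovl5 and Elovl6), beside 24.6%. Without control refed library 4, Scd1, Scd2, Fads1 and Fads2 also did not overlap between diets in refed liver, with Scd2 alone higher on low isoleucine food. Elovl6 then also did not overlap between feeding states on the control diet. Smaller groups separate more easily, and the share over all genes without that library was not computed.

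Compared per length, as CPM per kb of merged exon averaged over the 16 libraries, Scd1 had the highest level (448) and Scd2 the lowest (0.858). Between them lay Elovl2 (177), Elovl5 (175), Fads2 (125), Fads1 (77.2), Elovl3 (31.0), Elovl6 (14.0) and Elovl1 (8.51). Neighbours in this order were not equally separate. Over all groups Elovl2 was above Elovl5 in 8 of 16 libraries and Elovl3 above Elovl6 in 9 of 16, and both pairs changed order with the condition. Elovl3 was above Elovl6 in all 8 fasted libraries and in 1 of 8 refed ones, and Elovl2 was above Elovl5 in 0 of 4 low isoleucine fasted and 4 of 4 control refed libraries. Scd1 was above Elovl2 in 13, and Elovl5 above Fads2 and Elovl6 above Elovl1 in 14 each. Fads1 was above Elovl3 in 15, and Fads2 was above Fads1 and Elovl1 above Scd2 in all 16. The order also moved with the condition: in low isoleucine refed liver the mean of Scd1 was 112 ± 59.1 CPM per kb (SD, n = 4), beside 110 ± 13.1 for Elovl2 and 108 ± 22.7 for Elovl5.

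**Figure D2:**
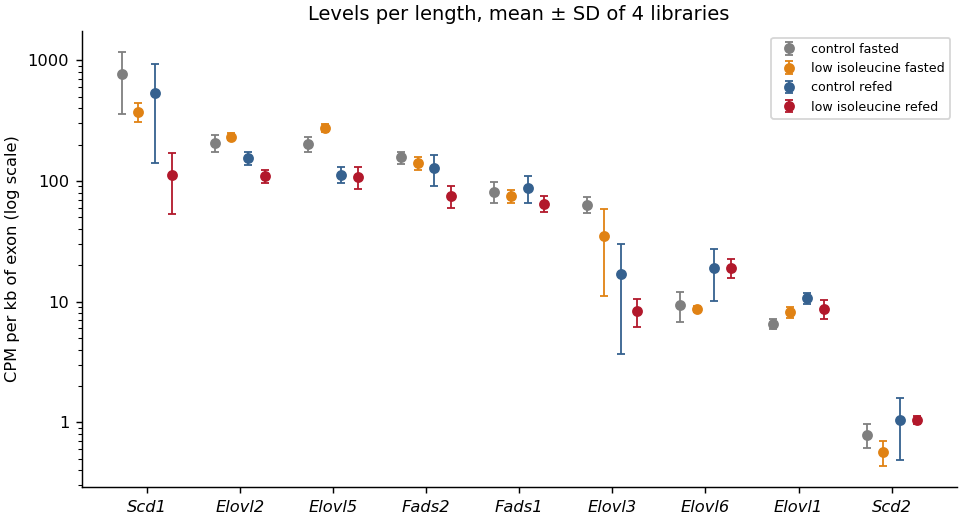
Level of each gene as CPM per kb of merged exon on a log axis, with points for the mean of 4 libraries and bars for the SD, coloured by group. Scd1 leads in control fasted liver (766) and stands beside Elovl2 and Elovl5 in low isoleucine refed liver (112, 110 and 108), and Scd2 stays near 1 in all groups.

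Scd1 and Scd2 lie near each other on chromosome 19, and Scd1 is the main form of mouse liver. In GENCODE M21 (GRCm38), looked up by identifier, Scd1 (ENSMUSG00000037071) spans 44394455 to 44407879 on the minus strand and Scd2 (ENSMUSG00000025203) spans 44293674 to 44306864 on the plus strand. Their coding sequences share 90.3% of 1065 aligned bases. The longest run identical in both is shown because reads inside it cannot be given to one gene by sequence. It covers coding bases 523 to 669 of Scd1 and 532 to 678 of Scd2, is 147 bases long, and is given on the coding strand from GENCODE M21 transcripts with no capitals:
Scd1 and Scd2 shared run: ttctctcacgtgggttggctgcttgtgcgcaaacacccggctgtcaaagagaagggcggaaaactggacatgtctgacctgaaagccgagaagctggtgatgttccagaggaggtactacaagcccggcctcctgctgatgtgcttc
Of all 50-base windows of the transcripts, 3.03% of those of Scd1 and 2.68% of those of Scd2 occur in the other gene. Scd2 had 81.3 to 406 expected counts per library, and Scd1 had 56.8 to 1204 times as many, so the Scd2 level is the more uncertain of the 2 where reads are shared. Whether it was affected was not tested.

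In fasted liver Scd1 stood at 1493, 5935, 4779 and 2790 CPM in the 4 control libraries and at 1580, 2071, 1510 and 2153 CPM in the 4 low isoleucine libraries. In refed liver it stood at 2165, 5272, 2537 and 573 CPM on the control diet and at 334, 952, 568 and 343 CPM on the low isoleucine diet. The control libraries were spread over a wide range in both states, and 3 of the 4 control refed libraries lay above every low isoleucine refed library while library 4 lay among them. With refeeding Scd1 fell on the low isoleucine diet, from 1829 ± 330 to 549 ± 289 CPM (SD, n = 4), a log2 fold change of -1.74 (SE 0.557, edgeR adjusted p = 0.0382). On the control diet its log2 fold change was -0.51 (SE 0.543, edgeR adjusted p = 0.604), moving to -1.09 when control refed library 2 was left out and to -0.18 when library 4 was. The call on the low isoleucine diet was lost in 9 of 26 alternatives, 1 of them the fit with no filter on low counts. The others were without control refed library 1, without any one of the 4 low isoleucine fasted libraries, and without low isoleucine refed library 1, 3 or 4 (edgeR adjusted p 0.0507 to 0.107). Between diets its log2 fold change was -1.04 in fasted liver (SE 0.547, edgeR adjusted p = 0.538) and -2.26 in refed liver (SE 0.567, edgeR adjusted p = 0.154). Without control refed library 4 the refed diet difference was -2.61 and passed (edgeR adjusted p = 0.0254), among 89 genes (0.592%). Over all 26 alternatives it ran from -2.67 to -1.70 with adjusted p from 0.00599 to 0.439, and 2 of the 26 called it. Averaged over feeding states the diet difference was -1.65 (SE 0.393, edgeR adjusted p = 0.0536). It passed in 8 of 25 alternatives, among them those without control fasted library 1, control refed library 4 or low isoleucine refed library 2 (adjusted p 0.00788 to 0.0470).

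Scd2, the form known for its place in brain, skin and early life, was scarce in these livers. In fasted liver it stood at 3.45, 4.91, 5.35 and 3.56 CPM on the control diet and 4.15, 3.07, 2.44 and 2.75 CPM on the low isoleucine diet. Its refed levels were 3.58, 5.07, 3.91 and 10.1 CPM on the control diet and 5.34, 6.20, 5.87 and 5.31 CPM on the low isoleucine diet. Its highest value of all was in control refed library 4, the library with the highest stellate, endothelial and Kupffer marker levels, and the part of those cells in it was not tested. The summed level of the 7 stellate markers ran from 347 to 463 CPM in control fasted, 305 to 388 in low isoleucine fasted, 252 to 548 in control refed and 302 to 376 CPM in low isoleucine refed liver. On the low isoleucine diet Scd2 rose with refeeding from 3.10 ± 0.744 to 5.68 ± 0.430 CPM (SD, n = 4), with no overlap and a log2 fold change of 0.87 (SE 0.279, edgeR adjusted p = 0.0337). That call was lost with the replicate block, without low isoleucine fasted library 2, 3 or 4, and without any one of the 4 low isoleucine refed libraries. In the fits that left out a library the edgeR adjusted p was then 0.0558 to 0.0933. The adipocyte marker Adipoq stood at 2.39 CPM in low isoleucine fasted library 1, whose Scd2 level was the highest of its group, at 0.595 CPM in control refed library 4, and at 0.101 CPM or less in the other 14. Of the 5 adipocyte markers 2 had enough counts to be tested, and the sum of all 5 ran from 29.5 to 42.6 CPM in control fasted, 46.1 to 68.3 in low isoleucine fasted, 14.1 to 35.2 in control refed and 10.2 to 17.2 CPM in low isoleucine refed liver. Low isoleucine fasted library 1, with the most Adipoq, had the lowest sum of its group (46.1 CPM). Control refed library 4 had the highest sum of its group (35.2 CPM). The part of fat tissue in the Scd2 levels was not tested. On the control diet the log2 fold change of Scd2 with feeding was 0.40 (SE 0.276, edgeR adjusted p = 0.372), and -0.05 without control refed library 4. Between diets in refed liver it was -0.01 with that library and 0.42 without it (edgeR adjusted p = 0.999 and 0.477). So Scd1 and Scd2 moved in opposite directions with refeeding on the low isoleucine diet.

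Fads1, the delta-5 desaturase, and Fads2, the delta-6 desaturase, lie near each other on opposite strands of chromosome 19. Fads1 (ENSMUSG00000010663) spans 10182888 to 10196877 on the plus strand and Fads2 (ENSMUSG00000024665) spans 10062765 to 10101746 on the minus strand. Their coding sequences share 66.7% of 1329 aligned bases and no 50-base window of their transcripts. Fads1 stood at 318, 463, 453 and 331 CPM in control fasted liver and at 419, 327, 318 and 377 CPM in low isoleucine fasted liver. After refeeding it stood at 383, 578, 401 and 326 CPM on the control diet and at 293, 375, 268 and 316 CPM on the low isoleucine diet. All groups overlapped, and Fads1 passed no test here. Its log2 fold changes with feeding were 0.11 (control; 0.21 without control refed library 4) and -0.20 (low isoleucine), and with diet -0.12 (fasted) and -0.43 (refed; SE 0.177, edgeR adjusted p = 0.438).

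In fasted liver Fads2 stood at 469, 469, 548 and 581 CPM on the control diet and at 416, 410, 508 and 524 CPM on the low isoleucine diet. In refed liver it stood at 381, 591, 389 and 317 CPM on the control diet and at 232, 319, 204 and 233 CPM on the low isoleucine diet. The low isoleucine refed libraries lay below every fasted library, and only library 2 of that group (319 CPM) reached the control refed range. Fads2 fell with refeeding 1.88-fold on low isoleucine food (log2 fold change -0.91, SE 0.180, edgeR adjusted p = 0.00178), and passed in all 26 alternatives. In control mice the value was -0.30 (SE 0.178, edgeR adjusted p = 0.288), and -0.51 without control refed library 2, where it passed (edgeR adjusted p = 0.0394, in a range of 0.0394 to 0.504 over the 26 alternatives). Without control refed library 4 it was -0.19. Between diets in refed liver it was -0.77 (SE 0.179, edgeR adjusted p = 0.109). Without control refed library 4 it was -0.89 and passed (edgeR adjusted p = 0.0251), among 89 genes (0.592%). Over the 26 alternatives that difference ran from -0.91 to -0.57 with adjusted p from 0.00669 to 0.439. Averaged over feeding states the diet difference was -0.46 (SE 0.126, edgeR adjusted p = 0.0785), and -0.53 without control refed library 4, where it passed (edgeR adjusted p = 0.0219, in a range of 0.0170 to 0.169 over 25 alternatives).

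**Figure D3:**
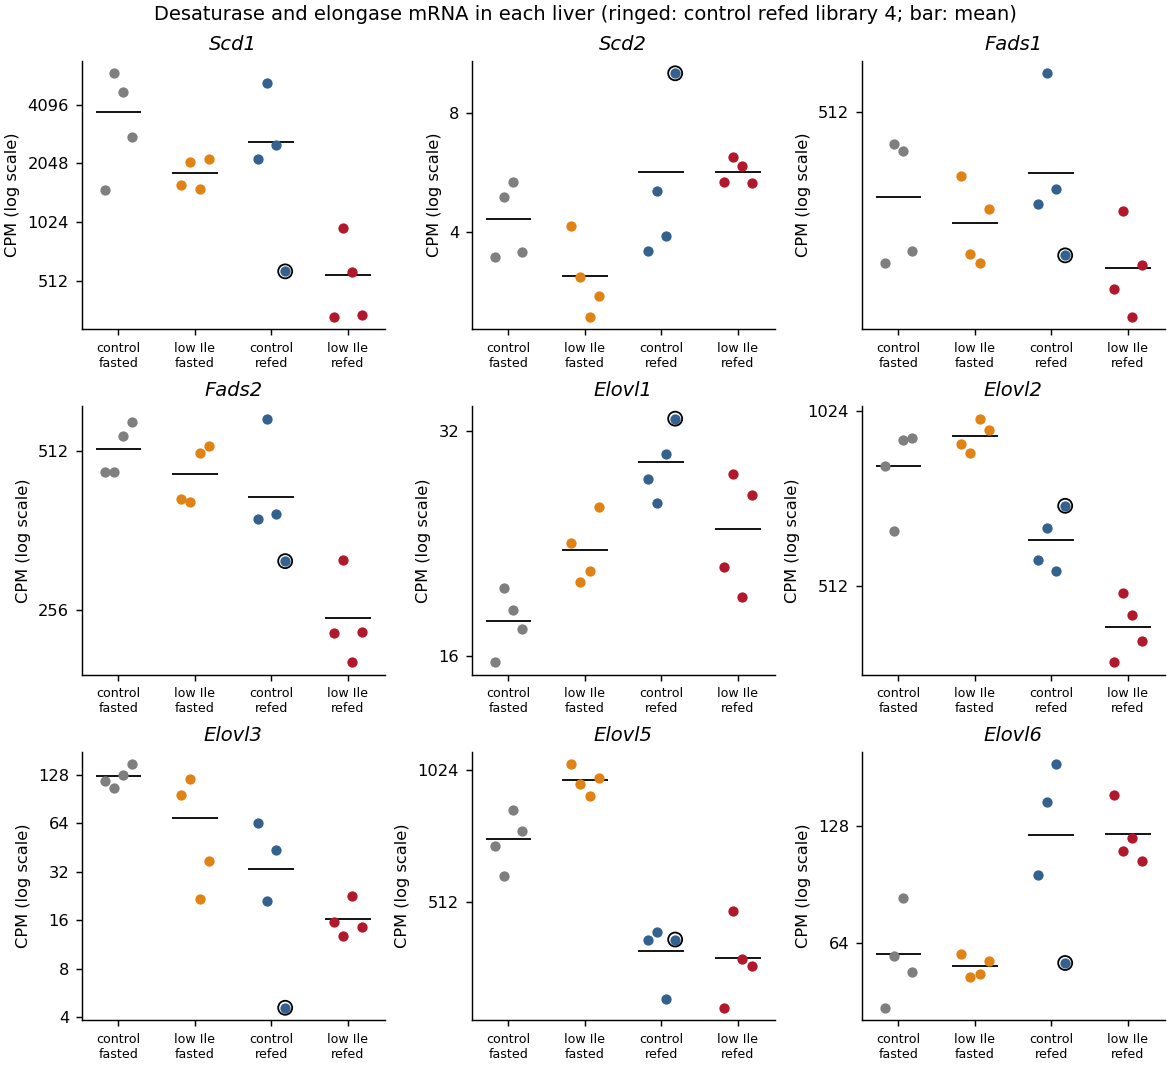
TMM-scaled CPM of each gene in every library on a log axis, coloured by group, with a bar at the group mean and a ring on control refed library 4. Elovl5 separates fasted from refed libraries on both diets (lowest fasted 588 CPM, highest refed 488 CPM), and the ringed library is the lowest of all for Elovl3 (4.57 CPM) and the highest for Scd2 (10.1 CPM).

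Elovl6, which acts on saturated chains, and Elovl5, which acts on polyunsaturated ones, went opposite ways with refeeding, so the sequences around their starts are shown side by side. Elovl6 (ENSMUSG00000041220) spans 129532355 to 129638495 on the plus strand of chromosome 3, and Elovl5 (ENSMUSG00000032349) spans 77917364 to 77984519 on the plus strand of chromosome 9. Each window runs from 250 bases before to 50 bases after the RefSeq start (GRCm38.p6), and capitals mark matches to CCAAT, the NF-Y box, or CACGTG, the E-box, on either strand:
Elovl6, chr3:129532136-129532435, plus strand: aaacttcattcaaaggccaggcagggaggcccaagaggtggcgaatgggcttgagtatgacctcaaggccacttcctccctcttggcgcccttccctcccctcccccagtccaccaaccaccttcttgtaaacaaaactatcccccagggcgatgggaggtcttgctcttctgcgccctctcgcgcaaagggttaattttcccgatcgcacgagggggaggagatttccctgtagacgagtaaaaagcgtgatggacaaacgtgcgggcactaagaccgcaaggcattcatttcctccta
Elovl5, chr9:77917115-77917414, plus strand: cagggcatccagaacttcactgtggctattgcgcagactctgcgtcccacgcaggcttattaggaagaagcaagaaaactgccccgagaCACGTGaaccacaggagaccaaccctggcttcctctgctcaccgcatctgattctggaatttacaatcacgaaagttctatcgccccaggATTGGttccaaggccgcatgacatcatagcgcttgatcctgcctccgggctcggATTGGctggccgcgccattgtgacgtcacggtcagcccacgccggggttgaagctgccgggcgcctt
The Elovl5 window holds CCAAT on the minus strand at 71 and 17 bases before the start and CACGTG at 161 bases before it, and the Elovl6 window holds neither. Of the 32851 promoter windows in the RefSeq table, 37.4% hold CCAAT and 7.15% hold CACGTG. The letters TCACNCCAC, one form of the sterol regulatory element, occur in 1.24% of windows and in 0 of the 7 windows found for members. Those 7 windows belong to Fads2, Elovl1, Elovl2, Elovl5 and Elovl6, and among them CCAAT also occurs in 1 window of Elovl1, 35 bases before the start. These are matches of letters and not binding sites.

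Elovl6 stood at 43.8, 59.6, 83.5 and 54.2 CPM in control fasted liver and at 60.2, 52.5, 53.4 and 57.8 CPM in low isoleucine fasted liver. Its refed levels were 95.6, 147, 184 and 57.0 CPM on the control diet and 153, 110, 119 and 104 CPM on the low isoleucine diet. Every low isoleucine refed library lay above all 8 fasted ones, and on the control diet library 4 alone lay inside the fasted range. Elovl6 rose with refeeding by a log2 fold change of 1.01 in control mice (SE 0.276, edgeR adjusted p = 0.0201) and 1.12 on the low isoleucine diet (SE 0.276, edgeR adjusted p = 0.00880). The second rise, 2.18-fold, passed in all 26 alternatives. In control mice it was 1.24 without control refed library 4, and the call was lost without control fasted library 1, 2 or 4 or control refed library 2 or 3 (edgeR adjusted p 0.0502 to 0.0776). It was also lost with no filter on low counts and with only the groups compared. Between diets its log2 fold changes were -0.11 in fasted and 0.01 in refed liver, with SE 0.274 and 0.272, and the second was -0.24 without control refed library 4.

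Elovl5, which lengthens polyunsaturated chains of middle length, stood at 686, 588, 829 and 741 CPM in control fasted liver and at 1055, 949, 891 and 982 CPM in low isoleucine fasted liver. After refeeding it stood at 419, 437, 308 and 420 CPM on the control diet and at 294, 488, 380 and 366 CPM on the low isoleucine diet. All 8 refed libraries lay below all 8 fasted ones. Elovl5 fell with refeeding 1.79-fold on the control diet (log2 fold change -0.84, SE 0.155, edgeR adjusted p = 0.00139) and 2.54-fold on the other (-1.35, SE 0.156, edgeR adjusted p = 1.89e-05). Both calls held in all 26 alternatives. In fasted liver every low isoleucine library lay above every control library, with a log2 fold change of 0.45 (SE 0.154) that did not pass (edgeR adjusted p = 0.243). In refed liver the diet difference was -0.05 (SE 0.153).

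Elovl2, which makes the longest polyunsaturated chains on the way to docosahexaenoate, moved in the same direction as Elovl5 with feeding. It (ENSMUSG00000021364) lies on chromosome 13 from 41182381 to 41220405 on the minus strand, and its coding sequence shares 64.5% of 867 aligned bases with Elovl5. In fasted liver it stood at 824, 636, 913 and 920 CPM on the control diet and at 897, 868, 992 and 947 CPM on the low isoleucine diet. In refed liver it stood at 567, 645, 544 and 703 CPM on the control diet and at 379, 498, 457 and 412 CPM on the low isoleucine diet. The low isoleucine refed libraries lay below every library of the other 3 groups. Elovl2 fell with refeeding 2.12-fold on low isoleucine food (log2 fold change -1.09, SE 0.133, edgeR adjusted p = 3.31e-05) and passed in all 26 alternatives. On the control diet the fall was smaller (-0.42, SE 0.132, edgeR adjusted p = 0.0370), the groups overlapped, and the call was lost in 10 of 26 alternatives. Among those were the fits without control fasted library 1, 3 or 4 or control refed library 1, 2 or 3 (edgeR adjusted p 0.0533 to 0.107). Between diets it was 0.17 in fasted liver (SE 0.132, edgeR adjusted p = 0.729) and -0.49 in refed liver (SE 0.132, edgeR adjusted p = 0.164).

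Elovl1, which lengthens saturated and monounsaturated chains to very long ones for sphingolipids, was modest in level and steady between libraries. It (ENSMUSG00000006390) lies on chromosome 4 from 118428093 to 118432953 on the plus strand. It stood at 15.7, 19.7, 18.4 and 17.4 CPM in control fasted liver and at 22.7, 20.1, 20.8 and 25.3 CPM in low isoleucine fasted liver. Its refed levels were 27.6, 25.7, 29.9 and 33.3 CPM on the control diet and 21.1, 28.1, 19.2 and 26.3 CPM on the low isoleucine diet. The control fasted libraries lay below all others except low isoleucine refed library 3, which was within their range. Elovl1 rose with refeeding on the control diet from 17.8 ± 1.71 to 29.1 ± 3.27 CPM (SD, n = 4), a log2 fold change of 0.71 (SE 0.131, edgeR adjusted p = 0.00147), and passed in all 26 alternatives. On the low isoleucine diet the value was 0.09 (SE 0.130, edgeR adjusted p = 0.683). Between diets it was 0.32 in fasted liver (SE 0.131, edgeR adjusted p = 0.360) and -0.30 in refed liver (SE 0.130, edgeR adjusted p = 0.464).

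Elovl3 lengthens saturated and monounsaturated chains, and in mouse liver its mRNA is known to be higher in males and to vary over the day. It (ENSMUSG00000038754) lies on chromosome 19 from 46131897 to 46135694 on the plus strand. In fasted liver it stood at 118, 107, 128 and 150 CPM on the control diet and at 95.7, 121, 21.6 and 37.6 CPM on the low isoleucine diet. Of the low isoleucine fasted libraries, library 2 was in the control range, library 1 just below it, and libraries 3 and 4 far below it. After refeeding it stood at 64.8, 21.1, 43.7 and 4.57 CPM on the control diet and at 15.7, 12.7, 22.6 and 14.6 CPM on the low isoleucine diet. Its SD was 68.2% of the mean in low isoleucine fasted liver and 78.5% in control refed liver, and 14.5% in control fasted liver. Elovl3 fell with refeeding on low isoleucine food (log2 fold change -2.07, SE 0.638, edgeR adjusted p = 0.0324), although low isoleucine fasted library 3 lay within the refed range. The call was lost in 8 of 26 alternatives, among them limma-voom, no filter on low counts and the replicate block. The others were the fits without low isoleucine fasted library 1 or 2 or low isoleucine refed library 1, 2 or 4 (edgeR adjusted p 0.0752 to 0.102). On the control diet the groups did not overlap and the log2 fold change was -1.91 (SE 0.631, edgeR adjusted p = 0.0516). It passed there in 8 of 26 alternatives, among them those without low isoleucine fasted library 3 or control refed library 1 (adjusted p 0.0380 and 0.0316, in a range of 0.0133 to 0.129). Without control refed library 4 the control diet value was -1.55 and did not pass. Between diets the log2 fold change was -0.87 in fasted and -1.03 in refed liver (SE 0.612 and 0.624, edgeR adjusted p = 0.686 and 0.632). The refed value was -1.41 without control refed library 4, and did not pass.

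Beside Elovl3, a list of 14 male-biased liver genes was examined. The summed level of the list ran from 31980 to 51710 CPM in control fasted, 8080 to 26170 in low isoleucine fasted, 6823 to 60260 in control refed and 6408 to 16820 CPM in low isoleucine refed liver. Between diets 4 of the 14 fell in fasted and 2 in refed liver, and 0 rose. Over all genes 0.771% and 0.174% passed there in either direction. With refeeding 1 of the 14 rose on the control diet and 2 rose on the low isoleucine diet, and 0 fell on either. Over all genes 8.91% rose and 8.2% fell on the control diet, and 9.6% rose and 11.8% fell on the low isoleucine diet. The lowest control refed sum was in library 4, which also had the lowest Elovl3. The 2 low isoleucine fasted libraries with the least Elovl3, 3 and 4, had the lowest sums of their group. A list of 16 clock genes was read in the same way. With refeeding 2 of them rose and 2 fell on the control diet. On the low isoleucine diet 5 rose and 2 fell. Between diets 2 clock genes fell in fasted and 0 in refed liver, and 0 rose. The part of either list in the Elovl3 levels was not tested.

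Whether diet changed the response to feeding was tested directly. No gene passed the interaction by edgeR, 0.0% of 14920, although 928 genes (6.22%) had an unadjusted p under 0.05. DESeq2 called 36 genes, none of them a member, and limma-voom called 0. Among the 9 members 4 had an unadjusted p under 0.05: Elovl2 (-0.66, SE 0.187, edgeR adjusted p = 0.515), Elovl1 (-0.62, SE 0.184, adjusted p = 0.543), Fads2 (-0.61, SE 0.252, adjusted p = 0.747) and Elovl5 (-0.50, SE 0.217, adjusted p = 0.789). For Scd1 it was -1.23 (SE 0.769, edgeR adjusted p = 0.900). Passing on one diet and not on the other, as for Scd1, Scd2, Fads2, Elovl1 and Elovl3, is thus not shown to be a difference between the diets.

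Ratios of 2 members within a library do not depend on scaling between libraries. For 3 ratios and 4 comparisons each, 12 exact two-sided permutation tests of 4 libraries against 4 were made, whose smallest possible p is 0.0286. None passed after Benjamini-Hochberg adjustment, and 6 reached the smallest p, for an adjusted p of 0.0571. Scd1 outnumbered Scd2 in counts 379 to 779 times in low isoleucine fasted liver and 62.4 to 153 times in low isoleucine refed liver. In control refed liver the ratio was 602 to 1036 in 3 libraries and 56.8 in library 4. On the log2 scale the low isoleucine refed mean was 2.75 below the fasted one (exact p = 0.0286). Between diets in refed liver the difference was -2.15 (exact p = 0.143, adjusted p = 0.214), and -3.07 without control refed library 4. With feeding on the control diet it was -0.99, and -0.07 without that library.

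The Fads1 to Fads2 ratio varied least of the 3 within each refed group. Its log2 value was 0.01, -0.03, 0.04 and 0.04 in the control refed libraries and 0.34, 0.23, 0.40 and 0.44 in the low isoleucine refed libraries, so that all of the second group lay above all of the first. The difference of means was 0.34 (exact p = 0.0286, adjusted p = 0.0571), and 0.35 without control refed library 4. In fasted liver the log2 ratio ran from -0.81 to -0.02 on the control diet and from -0.67 to 0.01 on the low isoleucine diet. With refeeding it was higher by 0.43 on the control diet (exact p = 0.0571, adjusted p = 0.0980) and by 0.72 on the low isoleucine diet (exact p = 0.0286, adjusted p = 0.0571).

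The Elovl6 to Elovl5 ratio separated fasted from refed liver on both diets. There were 0.0554 to 0.101 counts of Elovl6 per count of Elovl5 in the 8 fasted libraries and 0.136 to 0.598 in the 8 refed libraries, with no overlap. The log2 ratio was higher in refed liver by 1.76 on the control diet and by 2.47 on the low isoleucine diet (exact p = 0.0286 each). In fasted liver it was lower by 0.52 on the low isoleucine diet, again with no overlap (exact p = 0.0286, adjusted p = 0.0571).

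**Figure D4:**
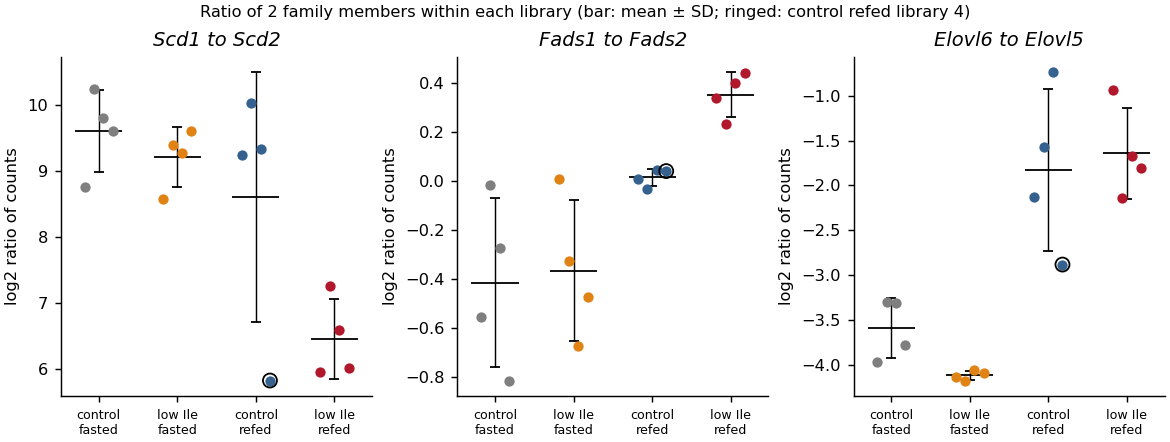
Log2 ratio of the counts of 2 genes within each library, coloured by group, with a bar for the mean and its SD over 4 libraries and a ring on control refed library 4. The Fads1 to Fads2 ratio lies at -0.03 to 0.04 in control refed and 0.23 to 0.44 in low isoleucine refed liver, and the Elovl6 to Elovl5 ratio is higher in every refed than in every fasted library.

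Around these genes the pathway was read from lists of related genes. Of 9 genes of fatty acid synthesis, 4 rose and 1 fell with refeeding on the control diet, and 5 rose and 1 fell on the low isoleucine diet. The rises on the 2 diets were 2.58 and 2.44 for Fasn, 3.09 and 3.04 for Mid1ip1, an activator of acetyl-CoA carboxylase, 2.73 and 2.85 for Thrsp, a lipogenic nuclear protein, and 1.28 and 1.29 for Acly, ATP citrate lyase (log2 fold changes). Acaca, acetyl-CoA carboxylase 1, rose by 0.72 on the low isoleucine diet, and Acacb, its mitochondrial form, fell by 1.03 and 1.44. No gene of the list passed for diet in either state, beside 0.771% of all genes in fasted and 0.174% in refed liver. On the low isoleucine diet Elovl6 rose as Fasn did, and Scd1 fell.

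Of 14 regulators, 2 rose and 3 fell on the control diet, and 5 rose and 5 fell on the low isoleucine diet. Srebf1, which encodes SREBP-1, stood at 11.1 to 34.4 CPM in the 8 fasted libraries and at 42.7 to 112 CPM in 7 refed libraries, and at 31.7 CPM in control refed library 4. It rose with refeeding by 1.80 (SE 0.366, edgeR adjusted p = 0.00372) and 2.21 (SE 0.373, edgeR adjusted p = 0.000766). Insig2, an endoplasmic reticulum anchor that holds SREBP back, fell by 1.68 and 1.81, and Ppara, a nuclear receptor of fasting lipid use, fell by 1.31 and 1.77. Insig1, the other anchor, rose by 1.25 on the low isoleucine diet (edgeR adjusted p = 0.0390) and was at 1.20 on the control diet (edgeR adjusted p = 0.0541). Nr1h3, the liver X receptor alpha, rose by 0.64 on the low isoleucine diet and was at 0.43 on the control diet (edgeR adjusted p = 0.160). Mlx, the partner of ChREBP, rose by 0.73 and 0.65, and Rxra, a partner of both receptors, fell by 0.68 and 0.69. Mlxipl, which encodes ChREBP, the carbohydrate response factor, did not pass (0.48 and 0.21). The control diet values of Insig1, Mlxipl and Nr1h3 include control refed library 4, the lowest of its group for each. It stood at 86.5, 76.6 and 57.0 CPM, against 267 to 430, 164 to 211 and 63.6 to 90.9 CPM in the rest of that group. None of the 14 passed for diet in either state, beside 0.771% of all genes in fasted and 0.174% in refed liver. Between diets Srebf1 was at -0.58 in fasted and -0.17 in refed liver (edgeR adjusted p = 0.629 and 0.915).

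**Figure D5:**
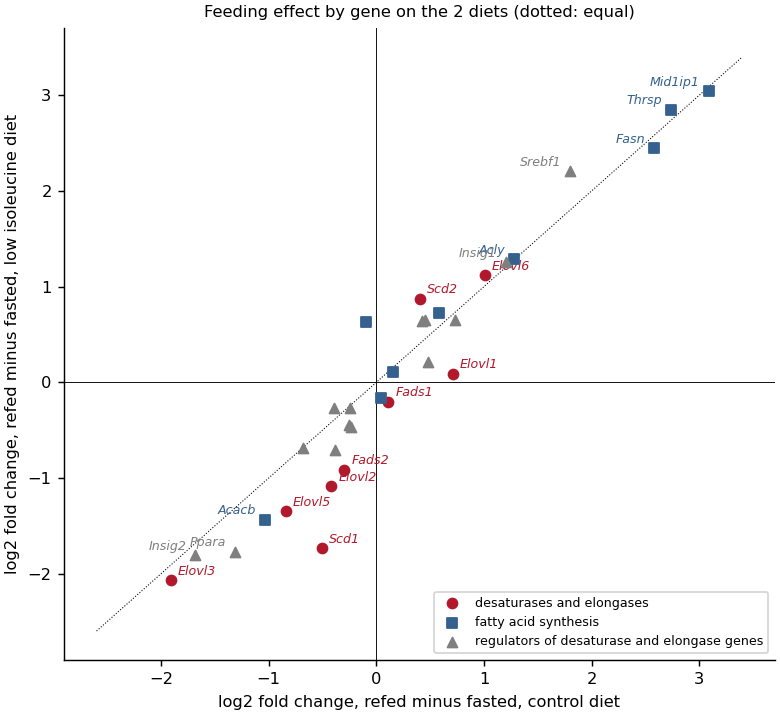
Log2 fold change with refeeding, control diet on x and low isoleucine diet on y, 1 point per gene, for the 9 desaturases and elongases (red circles), fatty acid synthesis (blue squares) and regulators (grey triangles); the dotted line marks equal change. Fasn, Thrsp and Mid1ip1 lie above 2 on both axes, Elovl6 near 1, and Scd1, Elovl2, Elovl3, Elovl5 and Fads2 below 0 on both.

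Of 8 other desaturases and elongases 4 were tested, and Scd3, Scd4, Elovl4 and Degs2 had at most 1, 4, 1 and 9 counts in any library. Fads6, a further Fads relative, stood at 132 to 179 CPM over the 16 libraries and did not pass with refeeding (log2 fold change 0.07 and 0.14). Fads3, a Fads relative, fell with refeeding by 1.24 in control mice and 1.74 on the low isoleucine diet. Degs1, a dihydroceramide desaturase, fell by 0.31 on the low isoleucine diet. Of 6 tested partners of the elongation cycle, Hacd3, a 3-hydroxyacyl-CoA dehydratase, fell by 0.44 and 0.66 on the 2 diets, and Hacd2 rose by 0.31 on the control diet. Of 5 tested genes that supply electrons to desaturases, 1 passed on the control diet, Cyb5b (0.62), and 0 on the low isoleucine diet.

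Genes that load and shorten acyl chains were mostly lower in refed liver where they passed. Of 11 tested acyl-CoA synthetases and phospholipid acyltransferases, 1 rose and 3 fell on the control diet, and 1 rose and 4 fell on the low isoleucine diet. Lpcat3, which puts polyunsaturated chains into phospholipids, fell by 1.20 and 1.30, from 84.7 to 111 CPM in the 8 fasted libraries to 33.4 to 58.6 CPM in the 8 refed ones. Acsl1, an acyl-CoA synthetase, fell by 1.07 and 1.35, while Acsl3, another, rose by 0.92 and 0.80. Of 10 genes of peroxisomal chain shortening 4 fell in control mice and 6 on the low isoleucine diet, and 0 rose. No gene of these pathway lists, from fatty acid synthesis to peroxisomal chain shortening, passed for diet in either feeding state. Over all genes only 0.771% passed for diet in fasted and 0.174% in refed liver.

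For each member the gene whose log2 CPM followed it most closely was sought among the tested genes that were not members. Genes with a mean under 1 CPM or a provisional name were left out. The gene taken had the highest lower value of the Pearson correlations over the 8 fasted and the 8 refed libraries. Each is the highest of a large search over few libraries, and selection alone can give high values. These correlations are descriptions, since the libraries also share scaling and condition. They were 0.84 and 0.87 for Pfkfb3 with Scd1, 0.91 and 0.92 for Olfml3 with Scd2, and 0.93 and 0.88 for Fam213a with Fads1. They were 0.76 and 0.85 for Fntb with Fads2, 0.84 and 0.78 for Plpp2 with Elovl1, and 0.89 and 0.80 for Cgref1 with Elovl2. For the last 3 members they were 0.87 and 0.91 for Hsd3b5 with Elovl3, 0.93 and 0.84 for Ppp2r2d with Elovl5, and 0.79 and 0.89 for Ces2g with Elovl6. The next closest were F2r and Aldh9a1 for Scd1, Arhgef6 and Art4 for Scd2, Slc44a3 and Pdcd6 for Fads1, Cys1 and Nipal3 for Fads2, and Tuba1b and Bco1 for Elovl1. Those of the other elongases were Ackr2 and Ung for Elovl2, Ces3a and Sec11c for Elovl3, Ddx28 and Pim1 for Elovl5, and Katna1 and Cyp2c70 for Elovl6. Hsd3b5 is on the male-biased list. Among members themselves Scd1 and Fads1 were closest, with 0.72 and 0.90, while Fads1 and Fads2 gave -0.01 in fasted and 0.97 in refed libraries.

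The authors' deposited tables of the diet comparisons gave all 9 genes as well. In the authors' deposited table for refed liver the log2 fold changes were -2.26 for Scd1 (adjusted p = 0.257) and -0.77 for Fads2 (adjusted p = 0.0846), the member nearest to passing. In the authors' deposited table for fasted liver they were 0.44 for Elovl5 (adjusted p = 0.582) and 0.31 for Elovl1 (adjusted p = 0.386). No member was under 0.05 in either authors' deposited table, of 14211 genes each, where 91 genes were in fasted and 39 in refed liver.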

How the data were processed

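Poly-A enriched, stranded libraries were sequenced over several lanes and merged per sample, per the labels' protocols. The authors deposited RSEM expected counts per gene, of which 10.2% are not whole, and for each diet comparison a table with an F score, a p-value and its Benjamini-Hochberg value, log2 CPM and log2 fold change, per the file headers. R 3.5.3, limma and edgeR are named in the submitters' processing notes. Aligner and genome build are not given in the sources used.

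After rounding, the expected counts were fitted with edgeR 4.0.16 under R 4.3.3 (filterByExpr with minimum count 10 and minimum total 15, TMM, robust quasi-likelihood fit, 1 mean per group, all 16 libraries). Adjustment of p-values was over the 14920 genes tested and the threshold was 0.05. The standard error is the size of the log2 fold change over the square root of F. Ratios used a prior count of 0.5, and correlations used log2 CPM with a prior count of 2. Library totals of 24368656 to 34002955 left counts of 81.3 or more for every member. The method was tested on simulated data, and the share of known changes that it recovered is not reported here.

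The 9 members and the 16 lists were chosen with earlier results of these data known. Named genes were all members, up to 6 passing genes per list and comparison with the largest change, 6 regulators, and for each member the 3 genes with the most similar pattern; not all of them are printed. Gene positions are from GENCODE M21, which held 51719 of the identifiers, and 51633 had a symbol. Promoter windows are from RefSeq. Alternatives were other scalings (DESeq2 size factors, upper quartile, library size alone), other filters, DESeq2 1.42.0, limma-voom (limma 3.58.1), a non-robust fit, a replicate block, only the groups compared, and leaving out each library. Some symbols in 1 deposited table are written as dates, none of them a member.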

Additional observations from a re-analysis of the deposited data

Results flagged for a closer look

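In 1 of the 48 groups of 4 libraries that were examined (9 genes and 3 ratios in 4 groups each), 1 library lay far from the other 3. Elovl5 stood at 308 CPM in control refed library 3 and at 419 to 437 CPM in the other 3 control refed libraries, a gap of 0.860 of the group's range, above the critical value of Dixon's test. By chance alone about 1 group in 20 is marked this way. The feeding difference of Elovl5 on the control diet passed in each of the 26 alternatives, that without this library included.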

How the results depend on the processing

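No log2 fold change of a member that passed changed sign in any alternative, and the counts for the fasted diet comparison (0 of 9), the interaction (0 of 9) and feeding averaged over diets (8 of 9, 7 to 8 when libraries were left out) stayed within 1.5 times. Members called for diet in refed liver numbered 0, but 3 with the DESeq2 Wald test and 0 to 2 when 1 library was left out, with 2 without control refed library 4. Without that library 89 of all genes tested (0.592%) were called there, against 26 (0.174%) with all libraries. Members called for diet averaged over feeding states numbered 0, but 2 with the DESeq2 Wald test and 1 with library size alone, with a filter of at least 1 CPM in at least 4 libraries, with the non-robust fit and with the replicate block, and 0 to 2 when 1 library was left out. Without control refed library 4 they numbered 2, where 473 of all genes tested (3.14%) were called, against 226 (1.51%) with all libraries. Members called for feeding on the control diet numbered 4, but 2 without a filter on low counts and 2 with only the groups compared, and 2 to 5 when 1 library was left out (2 without control fasted library 1 or 4 or control refed library 3). On the low isoleucine diet they numbered 7, and 4 to 7 when 1 library was left out (4 without low isoleucine fasted library 2 or low isoleucine refed library 1 or 4). When 1 library was left out, the log2 ratio of Scd1 to Scd2 between diets in refed liver ran from -3.07 to -1.68, that of Fads1 to Fads2 from 0.31 to 0.38, and that of Elovl6 to Elovl5 with feeding on the control diet from 1.39 to 2.11, each passing without control refed library 4. Both of the last already had the smallest p of 0.0286 with all libraries, and passed only because the Scd1 to Scd2 test then reached it too, which lowered the adjusted p of each test at that floor from 0.0571 to 0.0490. For these changes the cause was not tested.

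Of 24 pairs of samples with the same mark in different groups, 8 had a correlation of deviations over 0.1, in a range of -0.325 to 0.323. Pairs with different marks were not compared, so these values cannot decide whether samples of the same mark deviate together. The marks were not treated as pairs in the main fit. What they stand for is not stated in the labels. With the replicate block by mark, 4 members were called for feeding in control mice and 5 on the low isoleucine diet, with Elovl2 lost and Elovl3 gained on the first, and Scd2 and Elovl3 lost on the second. Scaling by library size alone moved the median of all genes for feeding to 0.14 (control diet) and 0.13 (low isoleucine diet). Against that shift Elovl2 was no longer called on the control diet, and the other feeding calls named above kept their direction.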
